A study of Homo sapiens with 3 samples.

Results

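The genes examined were 8 recurrent driver genes of pancreatic cancer, chosen by name as CDKN2A, CDKN2B, ARID1A, RNF43, KDM6A, MYC, GNAS and BRCA2, out of 20162 protein-coding genes of the annotation. For each gene, chromatin immunoprecipitation followed by sequencing (ChIP-seq) peaks were taken when any base lay inside the gene or within 5 kb of any of its annotated transcription start sites (TSSs), and every peak within 100 kb was listed as well. The cells were wild-type, untreated PANC-1, an established line from a human pancreatic ductal carcinoma. The series lists 3 libraries: an antibody against PHF13, an antibody against EZH2, and input chromatin, all from cells crosslinked with EGS, paraformaldehyde and formaldehyde. The PHF13 antibody was a rabbit polyclonal made for the study. There was 1 library per antibody and no replicate, so every value below describes these libraries, and no difference could be set against a spread between replicates. PANC-1 is known to have lost both copies of CDKN2A by deletion, and the input coverage was not analysed here.

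PHF13 is a PHD-finger protein that binds chromatin by recognising histone H3 methylated on a lysine linked to active promoters. EZH2 is the catalytic subunit of Polycomb repressive complex 2, which methylates histone H3 on a lysine linked to silencing and which commonly covers CpG-rich promoters in broad domains. In pancreatic ductal carcinoma, loss of the cell-cycle inhibitors at the CDKN2A locus is among the most frequent lesions, and Polycomb is the textbook repressor of that locus in proliferating cells. ARID1A and KDM6A are chromatin regulators whose loss is recurrent in this tumour, and KDM6A removes the methyl mark that EZH2 writes.

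The PHF13 list held 19039 peaks with a median width of 188 bp and a median fold enrichment of 3.41 over the local background. The EZH2 list held 21639 peaks with a median width of 216 bp and a median fold enrichment of 3.13. The height behind a typical call was low in both lists, with a median of 21 fragments at the summit over a background of 5.13 for PHF13 and of 25 fragments over 7.28 for EZH2. A summit is the position of highest coverage in a peak, and q is the false discovery rate of the peak caller. The weakest call had a −log10 q of 1.30 for PHF13 and 1.31 for EZH2.

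To learn which driver genes were marked by either protein, peaks were first sought at their starts. No PHF13 peak lay within 5 kb of a start of any of the 8 genes (0 of 8), a distance met by 21.0% of all protein-coding genes. An EZH2 peak lay within 5 kb of a start of 2 genes, RNF43 and GNAS, and of 23.6% of all protein-coding genes. Once peaks inside the gene were counted, ARID1A gained a PHF13 peak, so PHF13 marked 1 of 8 genes and EZH2 2 of 8, against 31.2% and 30.0% of protein-coding genes. In all, 6 of the 8 genes lacked a peak of either list within 5 kb of a start, whereas 39.3% of protein-coding genes had 1 or more. With the gene body included, the 5 genes CDKN2A, CDKN2B, KDM6A, MYC and BRCA2 still had no peak of either list, beside 48.6% of protein-coding genes with at least 1. No gene had peaks of both lists within 5 kb of a start, which 5.33% of protein-coding genes did. Every count out of 8, here and below, includes CDKN2A, known to be lost from PANC-1, and its neighbour CDKN2B. At this pair, a missing peak cannot be told apart from loss of the locus.

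Within 100 kb of the genes lay 26 of the 40678 peaks. PHF13 gave 11 of them, around ARID1A, MYC and GNAS, and EZH2 gave 15, around ARID1A, RNF43, GNAS and BRCA2. PHF13 thus came within 100 kb of 3 of 8 genes, compared with 75.6% of protein-coding genes, and EZH2 of 4 of 8, compared with 77.1%. CDKN2A, CDKN2B and KDM6A had no peak of either list in that range, which was the case for 8.81% of protein-coding genes. CDKN2A and CDKN2B are neighbours in one stretch of chromosome 9 and cannot be counted as separate observations. The median distance from a start to the closest peak was 253 kb for PHF13 and 120 kb for EZH2 over the 8 genes, beside 36.0 kb and 34.3 kb over all protein-coding genes. CDKN2A and CDKN2B each enter these medians. With the pair counted once, the middle value is 229.6 kb (RNF43) for PHF13 and 33.6 kb (ARID1A) for EZH2. The EZH2 value is then close to that of all protein-coding genes.

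**Figure D1:**
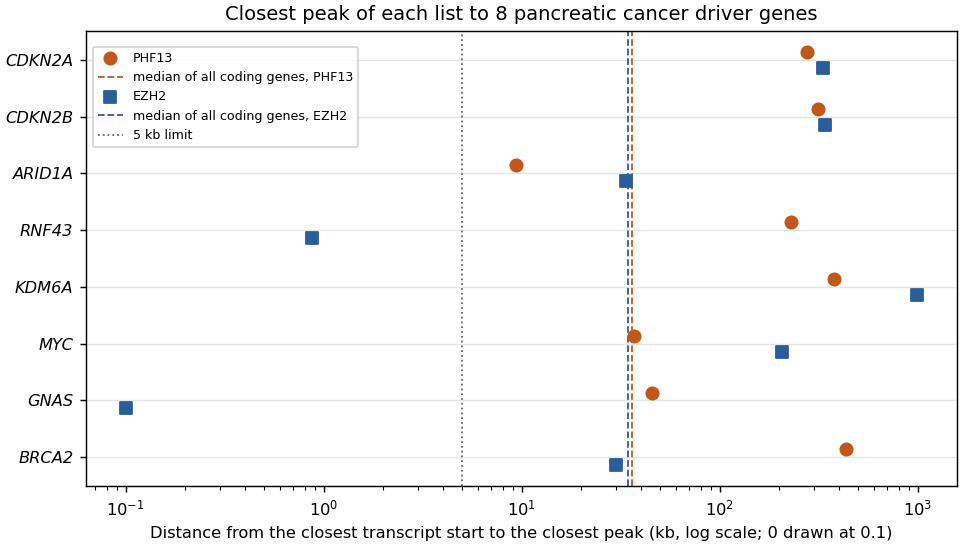
Distance from the closest transcription start to the closest peak, in kb on a log axis, for each of the 8 genes; circles are PHF13, squares are EZH2, dashed lines are the medians of all protein-coding genes and the dotted line marks 5 kb. The EZH2 squares of GNAS (0, drawn at 0.1 kb) and RNF43 (0.871 kb) lie left of the dotted line, and no PHF13 circle does.

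CDKN2A (ENSG00000147889, chr9:21967751-21995300, minus strand of GRCh37) encodes p16INK4a, an inhibitor of the cyclin D-dependent kinases, and p14ARF, an activator of p53, from separate first exons. CDKN2B (ENSG00000147883, chr9:22002902-22009304, minus strand) encodes the related kinase inhibitor p15INK4b. The closest PHF13 peak lay 280 kb from the p16INK4a start and 299.6 kb from the p14ARF start. The closest EZH2 peak lay 335 kb and 355 kb from the same starts. For CDKN2B, the closest PHF13 peak was 311 kb and the closest EZH2 peak 341 kb from a start. Only 9.52% of protein-coding genes were farther from a PHF13 peak than CDKN2B, and 5.29% were farther from an EZH2 peak.

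The starts without a call were CpG-rich. Over 1000 bp at the main start, the ratio of observed to expected CpG was 0.782 for CDKN2A and 0.829 for CDKN2B, above the median of 0.726 over protein-coding promoters. The closest exon-free 200 bases upstream of both starts are shown from the reference genome, since they are the promoter sequence at which neither protein was called, with each CG in capitals. As PANC-1 is known to have lost CDKN2A, this sequence may be absent from the cells. The p16INK4a window is chr9:21974866-21975065 on the minus strand and holds 17 CG, and the CDKN2B window is chr9:22009305-22009504 on the minus strand and holds 17 CG.
p16INK4a upstream: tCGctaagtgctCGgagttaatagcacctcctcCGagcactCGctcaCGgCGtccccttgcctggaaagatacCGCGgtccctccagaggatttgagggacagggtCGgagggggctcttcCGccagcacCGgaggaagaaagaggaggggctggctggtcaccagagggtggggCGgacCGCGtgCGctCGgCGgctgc
CDKN2B upstream: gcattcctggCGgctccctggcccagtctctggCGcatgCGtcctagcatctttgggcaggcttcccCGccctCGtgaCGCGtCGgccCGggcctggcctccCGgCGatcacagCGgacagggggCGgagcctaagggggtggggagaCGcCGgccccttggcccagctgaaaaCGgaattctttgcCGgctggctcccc

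The peak-free stretch around both genes ran from 21694836 to 22350183 on chromosome 9, a length of 655 kb. It ranked 441 of 38388 spans between neighbouring peaks of the combined lists, whose median length was 29.7 kb. Of all protein-coding genes, 5.4% lay wholly inside a stretch at least as long. Besides CDKN2A and CDKN2B, the stretch held 1 other protein-coding gene, MTAP, which encodes a methionine salvage enzyme. In the PHF13 list alone, the stretch extended from the same left end to 29211604, a length of 7.52 Mb that ranked 14 of 19015 spans. In the EZH2 list alone it measured 710 kb and ranked 673 of 21615.

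Both peaks that bounded the stretch were narrow, but they differed in the sequence beneath them. The PHF13 peak on the telomeric side, chr9:21694669-21694835, was 167 bp wide and enriched 3.64-fold, from 25 fragments over a background of 6.13, at a −log10 q of 5.01. It lay 273 kb beyond the 3′ end of CDKN2A, on sequence that occurs once in the genome. The EZH2 peak on the centromeric side, chr9:22350184-22350531, was enriched 2.95-fold, from 15 fragments over 4.42, the lowest background of its list, at a −log10 q of 2.09. Its median 24-base word occurs 6350 times in the genome, so a read from there matches many other places. The whole PHF13 peak (3 CG) is shown from the plus strand, because the left end of the stretch rests on it.
last PHF13 peak before CDKN2A: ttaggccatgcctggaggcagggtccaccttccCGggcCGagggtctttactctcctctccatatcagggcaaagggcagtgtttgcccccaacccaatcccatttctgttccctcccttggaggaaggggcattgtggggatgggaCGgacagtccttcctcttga

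Beyond this EZH2 peak on repeated sequence, a second stretch of 5.18 Mb followed, which ranked 13 of all spans. It ended at 27528563, before an EZH2 peak in a MOB3B intron that was enriched 5.09-fold at a −log10 q of 11.6. The peak on repeated sequence was therefore the only peak of either list in 5.83 Mb. That interval contained 14 protein-coding genes, the 3 of the first stretch and 11 of the second, and 5 of the 14 had a promoter in the group of highest CpG ratio when promoters were split into 3 groups of equal size. Over all protein-coding genes of that group, PHF13 was within 5 kb of a start in 27.8% and EZH2 in 25.4%.

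On the telomeric side, the stretch began directly after a dense group of PHF13 peaks. In the 188 kb from 21506768 to 21694835, 10 PHF13 peaks were called, or 53.2 per Mb, beside 6.15 per Mb over the assembly. As many PHF13 peaks were found in 9.41% of windows of that length that began at a PHF13 peak. These 10 peaks had fold enrichments from 2.53 to 5.02 and local backgrounds from 6.13 to 8.76 fragments, all above the list median of 5.13, and all lay on single-copy sequence. The part of the background in this density was not tested. There were 4 EZH2 peaks in the same interval. The loss of the locus from PANC-1 and the absence of binding on DNA that is present cannot be told apart in peak lists, and the ends of the deletion in these cells were not measured here.

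**Figure D2:**
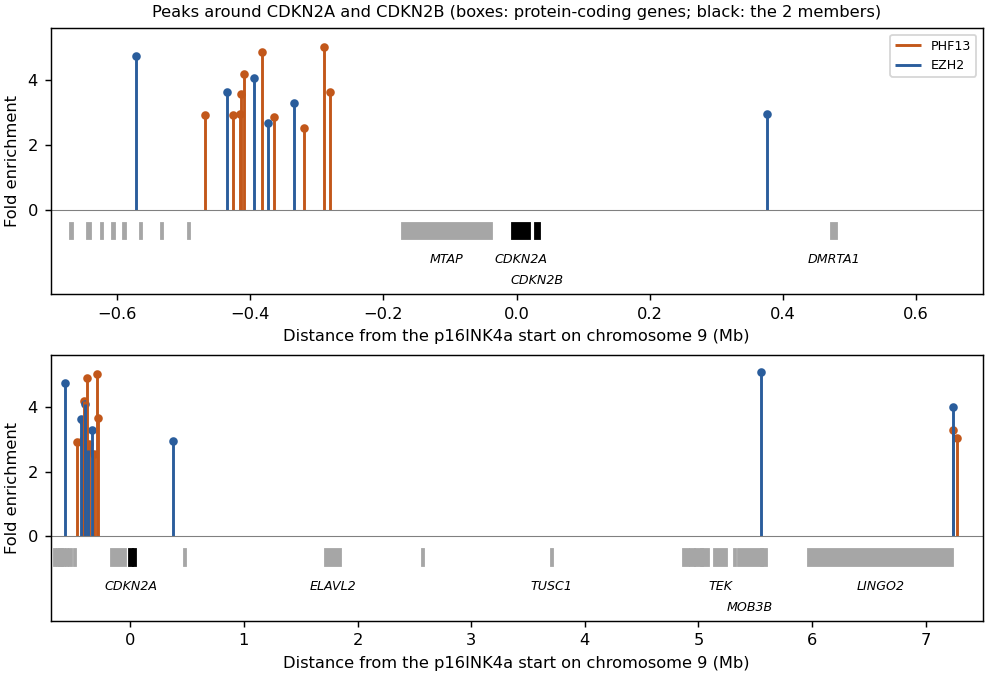
Fold enrichment at the summit of every PHF13 and EZH2 peak around CDKN2A and CDKN2B, against distance from the p16INK4a start in Mb, at 2 scales; boxes are protein-coding genes and black boxes are CDKN2A and CDKN2B. The upper panel shows 1 EZH2 peak to the right of the genes, and the lower panel shows no further peak until MOB3B.

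ARID1A (ENSG00000117713, chr1:27019727-27108595, plus strand) encodes a DNA-binding subunit of the SWI/SNF chromatin remodelling complex. It was the only gene of the 8 with a PHF13 peak inside it. The peak, chr1:27032240-27032491, was 252 bp wide and lay in an intron, 9345 bp from the closest start. It was enriched 3.69-fold, from 25 fragments over a background of 6.05, and its −log10 q of 5.12 exceeded that of 70.4% of its list. The 500 bp around its summit were 40.0% GC with a CpG ratio of 0.0512, unlike the ARID1A promoter, which had a CpG ratio of 0.8001 and no peak. The peak sequence holds 0 CG, and it is shown as the only PHF13 site within any of the 8 genes.
ARID1A, PHF13 peak: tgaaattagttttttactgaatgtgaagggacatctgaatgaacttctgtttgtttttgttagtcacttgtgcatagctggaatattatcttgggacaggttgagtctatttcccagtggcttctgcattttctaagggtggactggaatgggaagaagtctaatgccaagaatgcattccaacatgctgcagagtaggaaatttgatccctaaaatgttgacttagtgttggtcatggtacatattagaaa

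Upstream of ARID1A, a pair of PHF13 peaks lay 72.3 and 72.0 kb from the gene on CpG-rich sequence, at the start of a lncRNA gene. Their fold enrichments were 3.76 and 3.10, and their CpG ratios were 0.840 and 0.963. The stronger of them was 8 bp from the lncRNA start, and the closest start of a protein-coding gene was 48.4 kb away. The only EZH2 peak within 100 kb of ARID1A lay 33.6 kb upstream, enriched 2.87-fold. Its −log10 q of 2.22 exceeded that of 11.9% of its list.

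KDM6A (ENSG00000147050, chrX:44732434-44972024, plus strand) encodes a demethylase of the histone mark deposited by EZH2. It had no peak of either list in its 239.6 kb or within 100 kb. The closest PHF13 peak was 375 kb from a start, enriched 4.02-fold at a −log10 q of 4.67. The closest EZH2 peak was 990.3 kb away, over the start of MAOB, enriched 3.86-fold at a −log10 q of 7.53. Only 1.24% of protein-coding genes had their closest EZH2 peak farther away. The peak-free stretch around KDM6A measured 1.17 Mb and ranked 195 of 38388, and 3.26% of protein-coding genes lay wholly inside a stretch at least as long. Its promoter had the highest CpG ratio of the 8, 0.997. Chromosome X as a whole was sparse, with 3.31 PHF13 peaks and 3.92 EZH2 peaks per Mb. Within 1 Mb of KDM6A there were 7 PHF13 peaks and 1 EZH2 peak, or 3.13 and 0.447 per Mb. Of the 7 PHF13 peaks, 5 stood on the lowest background of the list, and the part of coverage in this result was not tested.

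RNF43 (ENSG00000108375, chr17:56431037-56494956, minus strand) encodes a transmembrane ubiquitin ligase that removes Wnt receptors from the cell surface. It had 1 EZH2 peak in the gene, chr17:56480953-56481111, and no PHF13 peak within 100 kb. The peak was 159 bp wide and enriched 3.51-fold, from 18 fragments over 4.42, the lowest background of the list, at a −log10 q of 3.61. It lay 871 bp from the start of an alternative transcript but 13784 bp from the main start, and it was also inside introns of TSPOAP1-AS1 and of an overlapping protein-coding gene record. The main RNF43 start was the only CpG-poor one of the 8, with a CpG ratio of 0.257. The peak sequence holds 3 CG and is shown on the minus strand, as the only site of either protein within RNF43.
RNF43, EZH2 peak: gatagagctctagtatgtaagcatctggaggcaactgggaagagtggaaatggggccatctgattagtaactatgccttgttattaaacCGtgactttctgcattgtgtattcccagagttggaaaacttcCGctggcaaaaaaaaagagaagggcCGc

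Another EZH2 peak lay 64.3 kb downstream of RNF43, enriched 2.98-fold at a −log10 q of 3.36. Its median 24-base word occurs 140 times in the genome. The closest PHF13 peak was 229.6 kb from a start of RNF43 and was also on repeated sequence, with a median word that occurs 1095 times. The peak inside the gene was on single-copy sequence that was 45.6% GC over 500 bp, with a CpG ratio of 0.195.

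GNAS (ENSG00000087460, chr20:57414773-57486247, plus strand) is an imprinted locus that encodes Gsα, the stimulatory subunit coupling hormone receptors to adenylyl cyclase, and, from upstream starts, XLαs and the secretory protein NESP55. Of the 4 peaks in the 8 genes or near their starts, it carried the one with the highest −log10 q and the most fragments, although its fold enrichment was below those at ARID1A and RNF43. This EZH2 peak, chr20:57415611-57417771, was 2161 bp wide, wider than 99.3% of the list, enriched 3.20-fold at a −log10 q of 18.8. Its summit held 98 fragments over a local background of 29.9. The peak covered 7 distinct GNAS starts and a start of GNAS-AS1, the antisense transcript of the locus, and lay 838 bp from the 5′ end of the gene. The 500 bp at its summit were 64.2% GC with a CpG ratio of 0.887. A window of 300 bases inside it, chr20:57416098-57416397 on the plus strand, is shown as the exon-free sequence closest to the summit, and it holds 22 CG.
GNAS, wide EZH2 peak: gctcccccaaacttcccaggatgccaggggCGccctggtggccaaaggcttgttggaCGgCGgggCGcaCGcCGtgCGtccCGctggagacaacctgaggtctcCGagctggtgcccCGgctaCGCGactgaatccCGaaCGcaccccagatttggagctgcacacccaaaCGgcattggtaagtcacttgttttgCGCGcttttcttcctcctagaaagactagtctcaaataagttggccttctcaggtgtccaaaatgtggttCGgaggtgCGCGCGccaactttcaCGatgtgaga

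A narrower EZH2 peak, chr20:57415299-57415448, lay 162 bp before the wide one. Its fold enrichment of 1.80 exceeded only 0.712% of the list, although its summit held 55 fragments, as these stood over a background of 30.2. The background at both GNAS peaks was above that of 95% of the EZH2 list (95.5% for the wide and 95.6% for the narrow peak), and the part of this input signal in the calls was not tested. Among the 1659 EZH2 peaks over 1 kb, the median background was 18.4, and 83.3% had a lower background than the wide GNAS peak. An EZH2 peak of that width lay within 5 kb of a start of 7.04% of protein-coding genes.

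The starts within GNAS differed in their distance to these peaks. The NESP55 start was 496 bp from an EZH2 peak. The XLαs start was 10.5 kb from the closest EZH2 peak and the Gsα start 48.7 kb from it. Thus the EZH2 signal stood at the upstream, NESP55 side of the locus, and none was called at the Gsα promoter, which had a CpG ratio of 0.932. No PHF13 peak was near any of these starts, and the closest lay 63.2 kb from the Gsα start.

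The surroundings of GNAS held more EZH2 peaks than those of any other gene of the 8. Within 1 Mb there were 46 EZH2 peaks, or 22.2 per Mb, beside 11.1 per Mb on chromosome 20 and 6.99 per Mb over the assembly. The same window held 15 PHF13 peaks, or 7.24 per Mb, beside 9.11 per Mb on the chromosome. The median background of these 46 EZH2 peaks was 10.7 fragments, above the list median of 7.28. Within 100 kb, EZH2 gave 9 peaks, of which 5 were upstream of the gene, 2 in it and 2 downstream. Of those upstream, 4 were in the PIEZO1P2 pseudogene. The 3 PHF13 peaks within 100 kb lay outside the gene, 88.9 kb upstream, 43.4 kb downstream and 70.1 kb downstream. The last of these stood 50 bp from the start of NELFCD, a subunit of the negative elongation factor, with a fold enrichment of 3.15.

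MYC (ENSG00000136997, chr8:128747680-128755197, plus strand) encodes a transcription factor that drives cell growth and division. It had neither protein in the gene or within 5 kb of a start, and its surroundings were rich in PHF13 and poor in EZH2. Within 100 kb there were 5 PHF13 peaks and 0 EZH2 peaks, and the closest EZH2 peak was 206 kb from a start. One PHF13 peak lay 67.1 kb upstream with a fold enrichment of 2.84. The other 4 lay 33.0 to 88.7 kb downstream of the gene, and 3 of them were inside PVT1, the lncRNA gene next to MYC. The fold enrichments of the downstream peaks were 3.53, 3.53, 3.29 and 3.02 with increasing distance, and the highest −log10 q was 5.80, from 30 fragments over 7.79.

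Over a wider range, 29 PHF13 peaks lay within 1 Mb of MYC, or 14.4 per Mb, beside 5.12 per Mb on chromosome 8. There were 7 EZH2 peaks in that window, or 3.49 per Mb, beside 5.43 per Mb on the chromosome. The median background of the 29 PHF13 peaks was 6.09 fragments, and 0 of them stood on the lowest background of the list, on which 20.7% of all PHF13 peaks stood. The part of input coverage in the number of PHF13 peaks was not tested. Among the 5 PHF13 peaks within 100 kb, 2 had an AP-1 site (TGACTCA on either strand) in the 200 bp at the summit, as did 11.2% of the PHF13 list. These were the only 2 with the site among the 11 PHF13 peaks within 100 kb of the 8 genes. Sequences of this locus are not shown here.

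BRCA2 (ENSG00000139618, chr13:32889223-32974405, plus strand) encodes a mediator of the repair of DNA breaks by homologous recombination. No peak lay in the gene, and the closest PHF13 peak was 433 kb from a start, enriched 3.82-fold at a −log10 q of 4.28. Within 1 Mb there were 3 PHF13 peaks and 7 EZH2 peaks, or 1.44 and 3.36 per Mb. The chromosome as a whole had 1.61 PHF13 and 3.13 EZH2 peaks per Mb. Of the 3 EZH2 peaks within 100 kb, 2 were in an intron of FRY, at 59.9 and 54.0 kb upstream of BRCA2, with fold enrichments of 2.83 and 3.69. The other, chr13:33000774-33002391, covered the start of N4BP2L1 on the other side of the gene. It was 1618 bp wide and enriched 4.24-fold, from 42 fragments over 9.14, at a −log10 q of 11.8, on sequence of 76.0% GC. Its distance from the 3′ end of BRCA2 was 26.4 kb. Of the EZH2 peaks near BRCA2, only this one covered the start of a neighbouring protein-coding gene, with a CpG ratio of 0.792. The peaks in the FRY intron were 738 and 1286 bp from an annotated FRY start, which need not be its main one. Their CpG ratios were 0.150 and 0.221.

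**Figure D3:**
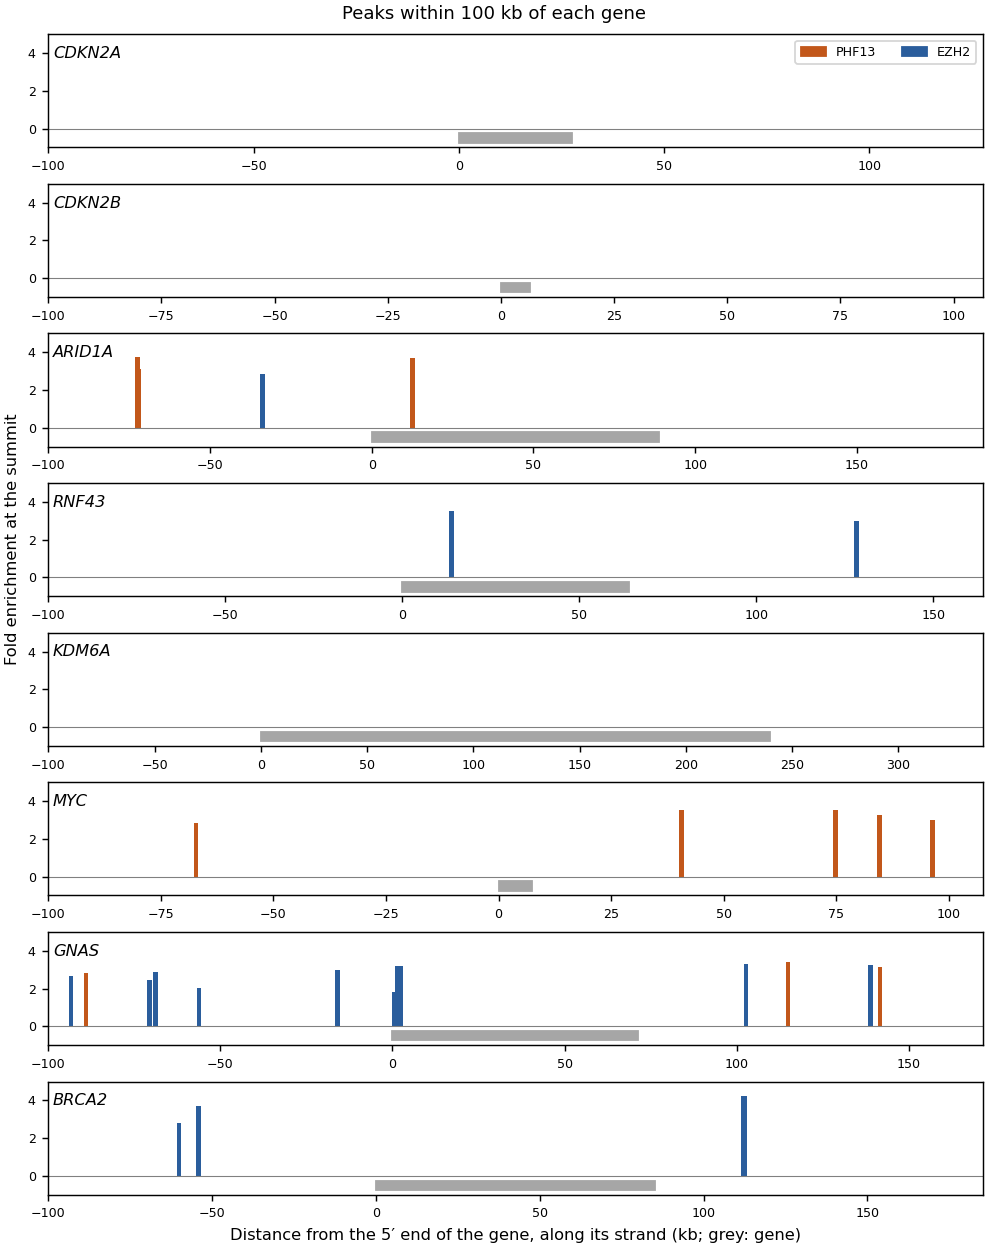
Fold enrichment of every peak within 100 kb of each gene, against distance in kb from the 5′ end of the gene along its strand; the grey box is the gene. The panels of CDKN2A, CDKN2B and KDM6A are empty, MYC shows 5 PHF13 peaks and no EZH2 peak, and GNAS shows 9 EZH2 and 3 PHF13 peaks.

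The peaks near the 8 genes were compared with their lists in height and sequence. The 11 PHF13 peaks had fold enrichments from 2.84 to 3.76 with a median of 3.29, beside 3.41 in the list, and −log10 q from 2.04 to 5.80 with a median of 3.59, beside 3.57. They held 17 to 30 fragments at the summit, all were on single-copy sequence, and 3 reached a −log10 q of 5. The 15 EZH2 peaks had fold enrichments from 1.80 to 4.24 with a median of 2.98, beside 3.13 in the list, and −log10 q from 1.70 to 18.8 with a median of 3.49, beside 3.99. They held 17 to 98 fragments, 13 were on single-copy sequence, and the only 2 that reached a −log10 q of 5 were those over GNAS and N4BP2L1. These were also the only 2 wider than 1 kb, a width reached by 7.67% of the EZH2 list.

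**Figure D4:**
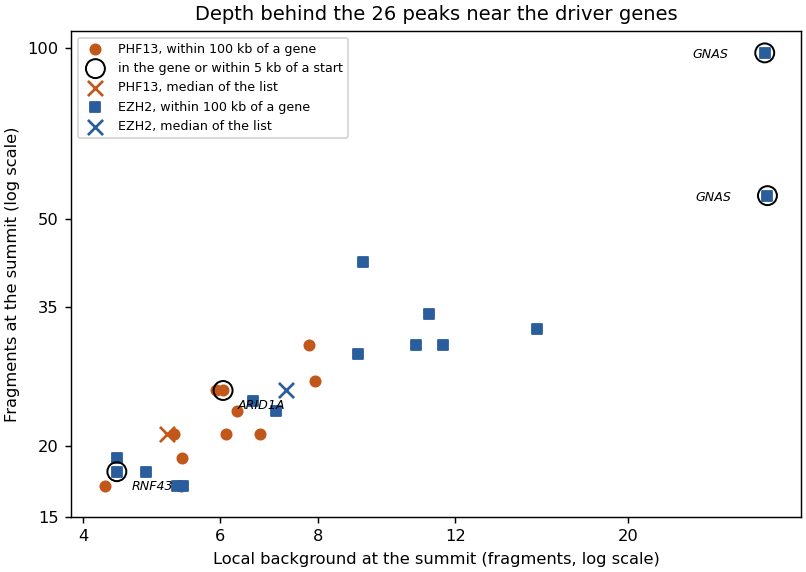
Fragments at the summit against local background, both on log axes, for the 26 peaks within 100 kb of the 8 genes; rings mark peaks in a gene or within 5 kb of a start and crosses mark the list medians. Both GNAS peaks stand apart at a background near 30.2 and 29.9, and the ringed peaks of ARID1A and RNF43 hold 25 and 18 fragments.

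Sites shared by PHF13 and EZH2 were then sought around the driver genes. None of the 11 PHF13 peaks overlapped any of the 15 EZH2 peaks, and no pair of summits was within 500 bp. Over the whole lists, 11.7% of PHF13 peaks and 10.3% of EZH2 peaks overlapped a peak of the other list, and with 11 and 15 peaks a share of that size amounts to few peaks. The closest pair, at NELFCD beyond GNAS, was 2696 bp apart. Around ARID1A the closest PHF13 and EZH2 peaks were 38.2 kb apart. Peaks of both lists within 100 kb were found at ARID1A and GNAS, 2 of the 8 genes, compared with 61.4% of protein-coding genes.

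The starts of the driver genes were mostly CpG-rich. Of the 8 main starts, 7 had a CpG ratio of at least 0.75, from 0.778 to 0.997, compared with 44.4% of protein-coding promoters, and RNF43 was the exception. Among protein-coding genes, the share with PHF13 within 5 kb of a start was 13.3% in the group of lowest promoter CpG ratio, 21.8% in the middle group and 27.8% in the highest. For EZH2 the shares were 20.5%, 24.7% and 25.4%. Of the 8 genes, only CDKN2B, KDM6A and GNAS were in the highest group. CDKN2A, ARID1A, MYC and BRCA2 were in the middle group, and RNF43 was in the lowest.

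To see how the 8 genes stood among other drivers of this tumour, 33 further driver genes were examined under the same rule. PHF13 was within 5 kb of a start at 15 of the 33 (45.5%), against 21.0% of protein-coding genes, and EZH2 at 3 (9.09%), against 23.6%. At a −log10 q of at least 5, PHF13 was left at 4 of the 33 and at 6.62% of protein-coding genes. Their median distance to the closest PHF13 peak was 6.36 kb, beside 253 kb for the 8 genes, and to the closest EZH2 peak 55.0 kb, beside 120 kb. With CDKN2A and CDKN2B counted once, the middle value of the 8 genes is 229.6 kb for PHF13 and 33.6 kb for EZH2. The EZH2 difference then goes the other way. These differences describe lists chosen by name with earlier results of these data known, and they were not tested.

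Of 6 genes of TGFβ and activin signalling among the 33, 3 had PHF13 within 5 kb of a start, and the closest PHF13 peak of the other 3 was 40.4 to 802 kb away. The PHF13 peaks near starts lay over a start of the receptor gene TGFBR2 (fold enrichment 3.20) and of the signal transducer SMAD3 (3.71), and 325 bp from a start of the activin receptor gene ACVR2A (3.95). The SMAD3 peak was in an intron at a CpG ratio of 0.398, beside 0.759 at TGFBR2 and 0.940 at ACVR2A. The −log10 q was 2.90 at TGFBR2, 7.54 at SMAD3 and 4.54 at ACVR2A. Of 7 chromatin regulators, which are related to ARID1A and KDM6A by function, 6 had PHF13 within 5 kb of a start, and the closest PHF13 peak of the other 1 was 12.8 kb away. Both groups were formed after the values were seen, and the share of all protein-coding genes was 21.0%. The peaks of the chromatin regulators lay over a start of the methyltransferase gene KMT2D (3.67), 2490 bp from a start of the SWI/SNF gene PBRM1 (5.36), and within 5 kb of starts of ARID1B, ARID2, SMARCA4 and SETD2. At ARID1B, PBRM1 and SMARCA4 the summit was in an intron, at CpG ratios of 0.240, 0.196 and 0.532. At KMT2D, ARID2 and SETD2 the ratios were 0.840, 0.776 and 0.815. The −log10 q of these closest peaks was 10.5 at PBRM1, 5.31 at KMT2D and 4.28 at ARID2. It was 3.04 at SMARCA4, 2.95 at ARID1B and 2.48 at SETD2. The limit stated in the methods for PHF13 corresponds to a −log10 q of 3. Any annotated start counted here, and main starts were not examined for the 33 genes. The kinase genes PIK3CA (3.38) and MAP2K4 (3.89) had a PHF13 peak over a start, and the peak of CTNNB1, which encodes β-catenin, was 14 bp from a start (3.83). PHF13 peaks also lay within 5 kb of starts of RREB1, a transcription factor of RAS signalling, and ATM, the DNA break kinase. The −log10 q was 3.22 at PIK3CA, 4.43 at MAP2K4, 4.05 at CTNNB1, 4.18 at RREB1 and 2.64 at ATM. EZH2 peaks lay 2.025 kb from a start of ACVR1B, 1.277 kb from a start of ATM and 0.95 kb from a start of GATA6, a lineage factor of the pancreas. ATM was the only gene of the 33 (3.03%) with both, beside 5.33% of protein-coding genes. Its PHF13 peak (chr11:108173477-108173689, in an exon) and EZH2 peak (chr11:108162628-108162795, in an intron) did not overlap and lay near different starts. At GATA6 the EZH2 call resembled the narrow one at GNAS in height, with a fold enrichment of 1.81 from 57 fragments.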

How the data were processed

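ChIP-seq of PHF13 and EZH2 in PANC-1 was used as the 2 deposited peak lists, with 1 library per antibody. Per the submitters' processing notes and the methods, the authors trimmed reads with Trim Galore 0.4.1, aligned them to hg19 with Bowtie2 2.4.1, removed duplicates with Picard and called peaks against the input with MACS2 2.2.7.1. No mapping quality filter is stated, so reads on repeated sequence may be placed at 1 of several equal positions. The deposited fold enrichment is a ratio of pileup to local background at the summit, p and q were deposited by the authors as −log10 values, and the deposited score is a multiple of the −log10 q. The methods give a stricter q for PHF13, and broad peaks for EZH2, than the narrow-format lists show, so both were used as deposited.

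Positions are 1-based on GRCh37, with GENCODE release 44 mapped to it. Fold and p were solved for whole fragments and background at the summit (relative error at most 0.0001, 100% of peaks of both lists, checked on simulated data). The lists do not give the total number of reads, so depth is known only at summits. A peak was single-copy when the median 24-mer in 100 bp at its summit occurs once in the genome. GC content and CpG ratio were taken from 500 bp around a summit or 1000 bp around a main start. Spans were measured between neighbouring peaks. Python 3.11.15 with numpy 2.4.6, pandas 2.3.3 and numba 0.67.0 was used. With no replicate, no test was run and no p-value is given. All 8 genes and every peak in a gene or within 5 kb of a start are named, the others by counts, by the strongest peak near each gene or by a neighbouring start. MTAP, PVT1, PIEZO1P2, GNAS-AS1 and TSPOAP1-AS1 are named as annotation and were chosen after the values were seen. Some items of the lists are not reported here. The groups of TGFβ and activin genes and of chromatin regulators, the overlap over the whole lists and the shares of protein-coding genes with both lists within 100 kb or with PHF13 at the higher q were added after the values were seen. The genes and the list of 33 further drivers were chosen with earlier results of these data known. Alternatives changed the q limit, the distance, the choice of starts and the use of repeated sequence.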

Additional observations from a re-analysis of the deposited data

How the results depend on the processing

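No paired analysis was possible because there was 1 library per antibody. Of 38 alternative values, 26 stayed within 1.5 times the main one, and 12 moved. The 26 include the PHF13 count of 0 within 5 kb under settings that only narrowed the rule, where it could not change. They also include the EZH2 peaks within 100 kb, which fell from 15 to 10 at a −log10 q of at least 3. With a distance of 10 kb in place of 5 kb, PHF13 was near a start of 1 of the 8 genes (ARID1A) in place of 0. EZH2 within 5 kb fell from 2 genes to 1 (GNAS) at a −log10 q of at least 5, and also when the 5′ end of the gene was the only start used; with the gene body included, the count at that q was 1 as well. The PHF13 peaks within 100 kb numbered 3 at a −log10 q of at least 5 and 6 at 3, in place of 11, and the EZH2 peaks numbered 2 at 5, in place of 15. Of the 33 further drivers, 4 in place of 15 had PHF13 at a −log10 q of at least 5, and 1 in place of 3 had EZH2 within 1 kb. The stretch around CDKN2A, 655 kb in the combined lists, measured 7517 kb in the PHF13 list alone and 5834 kb both at a −log10 q of at least 3 and with single-copy peaks alone, since the EZH2 peak that ends it on one side has a −log10 q of 2.09 and lies on repeated sequence.

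Most peaks near these genes rest on under 31 fragments at the summit, and 1 library gives no measure of how often a call would recur. The lists hold called peaks only, and the coverage between them was not analysed here.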
